A study of Homo sapiens with 5 samples.

Results

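The genes described here encode 39 glycoproteins and proteoglycans of the extracellular matrix, chosen by symbol from the 26364 genes listed in the series. All 39 were listed, all had at least 1 read in some library, and 38 reached the mean normalized count of 10 that was required for testing. A normalized count is the number of reads on a gene divided by 1 scaling factor per library.

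The matrix around a fibroblast is a mesh of fibrils that the cell secretes and then assembles outside its membrane. Fibronectin and the matricellular proteins link collagen to integrins and tune growth factor signals, fibrillins and their partners form the microfibrils on which elastin is deposited, small leucine-rich proteoglycans coat collagen fibrils, and laminins, nidogens and perlecan build the basement membrane. Lung fibroblasts are known as a main source of these proteins in the airways and alveoli.

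mRNA-seq was done on growing IMR-90 cells, an established line of normal fibroblasts from human lung, 24 hr after the siRNAs were transfected. Ctr-KD cells received a control siRNA against luciferase and gave 2 libraries (Ctr-1 and Ctr-2). NSD2-KD cells received an siRNA against the H3K36 methyltransferase NSD2 and gave 3 libraries, each from a different siRNA (NSD2-1, NSD2-2 and NSD2-3). The libraries held 2473691 to 2845063 reads on genes. A single siRNA therefore has 1 library, and siRNA and replicate cannot be told apart. The study's methods call the Ctr-KD libraries biological replicates, but their read counts were close to what counting error alone gives (chi-square over degrees of freedom 1.05, against 3.87 to 5.29 in the other pairs of libraries), and their spread is that of near-identical libraries.

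The labels were checked on NSD2, listed as WHSC1, which had 463 and 443 normalized counts in Ctr-KD cells and 90.2, 81.9 and 87.9 with the 3 siRNAs (adjusted p = 0.000464 from limma). All 9 fibroblast markers, the members DCN and LUM included, were expressed, among them COL1A1 (91000 to 106300 normalized counts) and VIM (12280 to 14460). All 7 epithelial and all 5 blood cell markers stayed at or under 3 reads in every library, as did 4 of 5 endothelial markers, TEK being the exception (97.6 to 149.7 normalized counts). Of the smooth muscle and pericyte list, DES stayed at or under 3 reads, while the summed level of the 5 genes, most of it CNN1 and ACTG2, which cultured fibroblasts also make, was 2300 to 2341 in Ctr-KD cells and 1920 to 2211 in NSD2-KD cells. The part of that difference in the results below was not tested. In bulk RNA, fewer cells of a type and less RNA per cell cannot be told apart.

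Matrix glycoprotein mRNAs were abundant in these cells. Together the 39 genes took 4.31% and 4.33% of all normalized counts in the Ctr-KD libraries and 4.41%, 4.79% and 4.09% with NSD2-1, NSD2-2 and NSD2-3. The Ctr-KD values lay inside the range of the siRNAs, with NSD2-2 above and NSD2-3 below them. FN1 alone made up 41.6% to 44.1% of the members' counts. The median member had a mean normalized count of 775 against 86.3 for all genes tested, and a canonical transcript of 5260 bases against 3479.

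Set against transcript length, the order of levels in Ctr-KD cells was led by the adhesive proteins. FN1, fibronectin, stood at 5991 ± 81.6 normalized counts per kb (SD, n = 2), SPARC, a collagen-binding matricellular protein, at 3501 ± 32.8, and TGFBI, an integrin-binding protein induced by TGF-β, at 2796 ± 14.7. The next was THBS1, the matricellular thrombospondin-1, at 665 ± 22.1 per kb, and these leading genes were separated by more than their spread. LAMC1, the laminin γ1 chain, followed at 460 ± 4.27. Below it EFEMP2 (fibulin-4, 407 ± 1.37 per kb), FBN1 (fibrillin-1, 413 ± 2.12), DCN (decorin, 396 ± 9.61) and FBN2 (fibrillin-2, 393 ± 4.72) were close to each other. The SD of 2 near-identical libraries can lie below counting error, so the order of such close genes is not settled. The order also rests on canonical transcript lengths, which may not be those of the transcripts in these cells. BGN (biglycan) and EMILIN1, an elastic fibre glycoprotein, were level with each other at 312 ± 8.31 and 312 ± 7.76 per kb.

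Some members were scarce in these cells. ELN, which encodes the elastin precursor, had 15.0 ± 1.04 normalized counts per kb and LAMA2, the laminin α2 chain of muscle basement membrane, had 3.72 ± 0.303 (SD, n = 2, Ctr-KD). MFAP2, a microfibril glycoprotein, had 9.53 and 16.5 normalized counts in the Ctr-KD libraries and 17.5, 27.3 and 15.6 in the NSD2-KD libraries, so it was counted on few reads. MFAP5, another microfibril glycoprotein, had 1 read in NSD2-2 and 0 reads elsewhere, where a count of 0 allows up to 3 reads, or 2.76 to 3.28 normalized counts, and it was not tested.

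**Figure D1:**
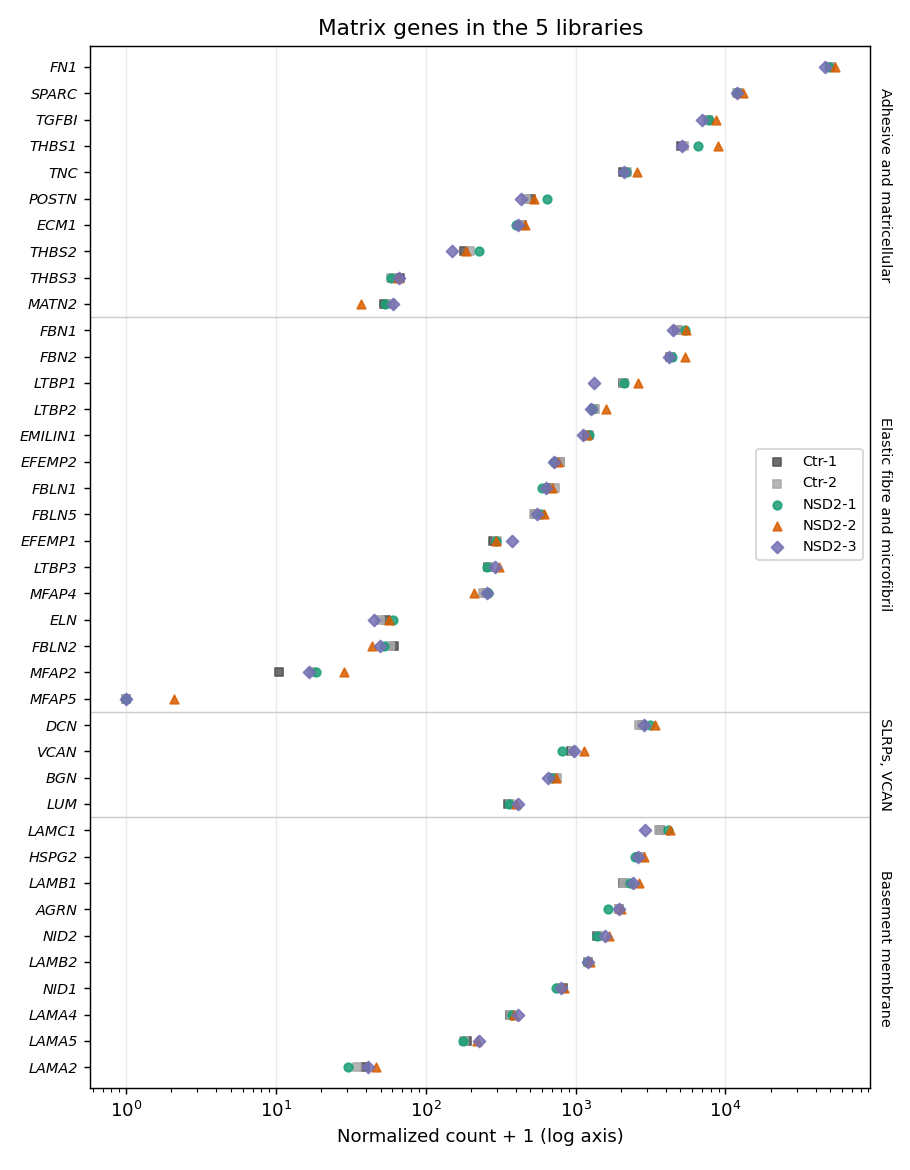
Normalized count + 1 (log axis) of the 39 matrix genes in each library, grouped by role and ordered by mean level (SLRPs, small leucine-rich proteoglycans). Squares are the Ctr-KD libraries and the other markers the NSD2 siRNAs. FN1 stands between 46161 and 53799 and MFAP5 at or next to 0.

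No matrix gene of this group differed between NSD2-KD and Ctr-KD cells by the adjusted test, and most log2 differences were small. None of the 38 tested members passed an adjusted p of 0.05 in limma in either direction, where 0.0354% of all genes tested were called higher and 0.053% lower. DESeq2 and edgeR's quasi-likelihood test on the recovered reads also called 0 of 38, against 0.124% and 0.0442% of all genes higher and 0.389% and 0.0972% lower. At an unadjusted p under 0.05, limma gave 1 member higher and 0 lower (4.19% and 4.99% of all genes), edgeR 1 and 0 (3.96% and 5.28%), and DESeq2 0 and 0 (1.57% and 3.1%). The log2 differences of the members ran from -0.29 (FBLN2) to 0.60 (MFAP2) with a median of 0.031, and 24 of 38 were above 0. Over all genes tested the median was -0.0089 and 48.5% were above 0.

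A p above the threshold does not show equal levels, so the interval of each difference matters more. The 95% interval of the limma difference, not adjusted for the number of genes, lay wholly within 1.5-fold up or down for 32 of the 38 members (84.2%) and for 45.0% of all genes tested. Intervals narrow with depth, and the members were covered more deeply than most genes. They also count Ctr-1 and Ctr-2 as independent replicates, and would be too narrow if these near-identical libraries were not. How many stay within 1.5-fold was not counted with the Ctr-KD libraries averaged. The 6 members with a wider interval were THBS1, MATN2, LTBP1, FBLN2, MFAP2 and LAMA2. The interval of 37 members lay within 2-fold (97.4%, against 83.1% of all genes tested), the exception being MFAP2, from -0.21 to 1.41 on the log2 scale.

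**Figure D2:**
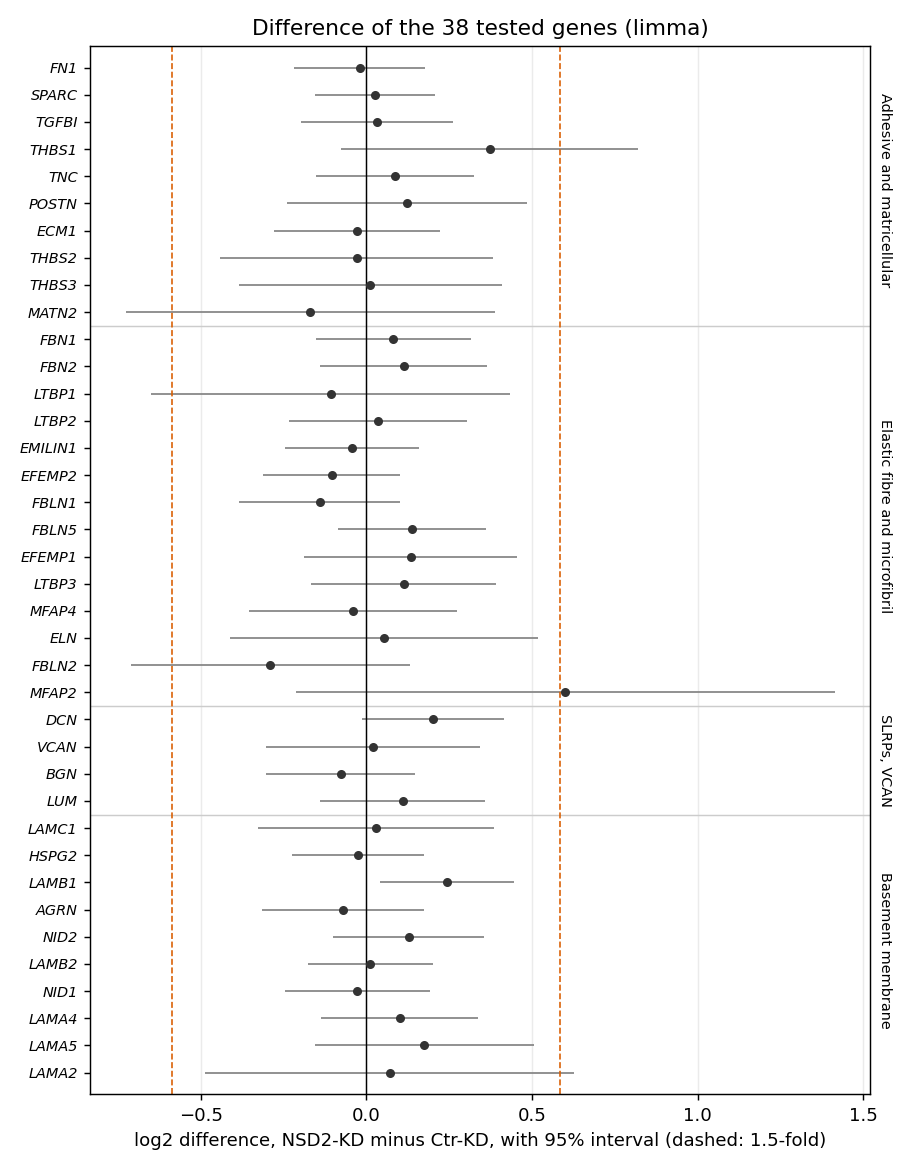
Points show the log2 difference of NSD2-KD minus Ctr-KD cells from limma on log2(normalized count + 1) for the 38 tested genes, by role (SLRPs, small leucine-rich proteoglycans), and bars show the 95% interval. Dashed lines mark 1.5-fold. The intervals of 32 genes stay between the lines, and LAMB1 is the gene whose interval lies wholly above 0.

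Among the adhesive and matricellular genes, the leading members differed little between the groups. FN1, on chromosome 2 of GRCh37 from 216225163 to 216300796, had 49784 and 50752 normalized counts in Ctr-KD cells and 49032, 53799 and 46161 with NSD2-1, NSD2-2 and NSD2-3. The siRNAs fell on both sides of the Ctr-KD libraries. Its log2 difference was -0.020 (standard error 0.087, 95% interval -0.22 to 0.18, adjusted p = 0.963 from limma), a fold between 0.859 and 1.13.

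SPARC had 12161 and 12001 normalized counts in Ctr-KD cells against 11898, 13121 and 11950, and TGFBI had 7612 and 7556 against 7708, 8674 and 6989. In both genes NSD2-2 was the highest library and the groups overlapped. The difference was 0.027 for SPARC (interval -0.15 to 0.21) and 0.033 for TGFBI (interval -0.20 to 0.26), both on the log2 scale.

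THBS1, which binds cell surface receptors and can activate latent TGF-β, varied most between siRNAs in this class. Its normalized counts were 5056 and 5299 in Ctr-KD cells and 6552, 8945 and 5137 with NSD2-1, NSD2-2 and NSD2-3. NSD2-1 and NSD2-2 lay above both Ctr-KD libraries and NSD2-3 between them. The log2 difference was 0.37 (standard error 0.20, interval -0.075 to 0.82, adjusted p = 0.623 from limma), and with the replicate number as a block its adjusted p was 0.0501, in a fit where the NSD2-3 library carries no weight. Exons of FSIP1 and THBS1-AS1 overlap THBS1 on the other strand.

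The remaining genes of this class were TNC (tenascin-C, 2135 ± 85.9 against 2274 ± 244 normalized counts), POSTN (periostin, 484 ± 24.8 against 532 ± 103), ECM1 (432 ± 11.5 against 424 ± 33.6), THBS2 (187 ± 12.3 against 185 ± 38.1), THBS3 (62.1 ± 6.42 against 62.6 ± 4.04) and MATN2, a matrilin that joins matrix filaments (54.5 ± 4.36 against 49.3 ± 12.1; SD, n = 2 Ctr-KD and n = 3 NSD2-KD). In all of them the groups overlapped. The log2 differences of the 10 genes of the class had a median of 0.020, and 6 were above 0.

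Of the 15 elastic fibre and microfibril genes, 14 were tested, with a median log2 difference of 0.044 and 8 above 0. The fibrillins, which polymerise into the microfibril backbone, were close to their control level. FBN1 had 4775 and 4810 normalized counts in Ctr-KD cells and 5343, 5466 and 4467 in NSD2-KD cells (log2 difference 0.082, interval -0.15 to 0.32). FBN2 had 4259 and 4332 against 4413, 5365 and 4230 (0.11, interval -0.14 to 0.36). In both fibrillin genes NSD2-3 was the lowest library and NSD2-2 the highest, so the groups overlapped.

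Fibulins, glycoproteins that tether elastin to microfibrils, held 3 members whose groups did not overlap, as was the case for 27.7% of all genes tested. FBLN5, needed for elastic fibre assembly, had 537 and 527 normalized counts in Ctr-KD cells and 591, 614 and 553 in NSD2-KD cells (log2 difference 0.14, standard error 0.097, adjusted p = 0.735 from limma). EFEMP2, fibulin-4, which brings lysyl oxidase to elastin, lay the other way, with 789.8 and 786.0 against 721, 764 and 715 (-0.10, standard error 0.090, adjusted p = 0.791 from limma). FBLN2 had 60.0 and 56.6 against 51.5, 42.6 and 48.8 (-0.29, standard error 0.18, adjusted p = 0.696 from limma). None of these differences passed the test. FBLN1 had 705 ± 38.3 against 641 ± 51.7 normalized counts and EFEMP1 (fibulin-3) 290 ± 11.6 against 321 ± 47.8 (SD, n = 2 and n = 3), with overlapping groups.

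Latent TGF-β binding proteins store TGF-β in the matrix. LTBP1 is taken up with the siRNAs below. LTBP2 had 1342 ± 15.6 against 1383 ± 187 normalized counts and LTBP3 262 ± 4.46 against 285 ± 26.4. EMILIN1 (1212 ± 30.2 against 1177 ± 56.2), MFAP4 (246.6 ± 9.69 against 240.9 ± 29.0) and ELN (50.9 ± 3.53 against 53.1 ± 8.25; SD, n = 2 and n = 3) also had overlapping groups. Exons of MAPK7 overlap MFAP4 on the other strand, so its counts are less certain.

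Among the small leucine-rich proteoglycans and versican, 3 of 4 log2 differences were above 0 and the median was 0.065. DCN, decorin, which binds collagen fibrils and TGF-β, lies on chromosome 12 from 91534261 to 91576994. It had 2762 and 2669 normalized counts in Ctr-KD cells and 3144, 3384 and 2857 in NSD2-KD cells, without overlap. The log2 difference of 0.20 (standard error 0.093, interval -0.013 to 0.42) had an adjusted p of 0.575 from limma. LUM, lumican, a regulator of collagen fibril diameter, lies beside it on the same strand, from 91496406 to 91505271, with 352 and 366 against 358, 397 and 409 normalized counts (0.11, interval -0.14 to 0.36). BGN, the X-linked relative of decorin, had 733 ± 19.5 against 696 ± 45.0 normalized counts (SD, n = 2 and n = 3), and VCAN, the hyaluronan-binding proteoglycan versican, 936 and 966 against 809, 1145 and 971. Both overlapped between groups.

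The basement membrane class held the member with the smallest p. LAMB1, the laminin β1 chain, on chromosome 7 from 107564244 to 107643658, had 2074 and 2091 normalized counts in Ctr-KD cells and 2317, 2652 and 2434 with NSD2-1, NSD2-2 and NSD2-3. All 3 siRNAs lay above both Ctr-KD libraries. Its log2 difference of 0.24 (standard error 0.088, interval 0.040 to 0.44) had an unadjusted p of 0.0244 and an adjusted p of 0.437 from limma, and was not called. DLD overlaps LAMB1 on the other strand, and its level was 221 ± 0.605 in Ctr-KD cells and 210.5 ± 30.1 in NSD2-KD cells (SD, n = 2 and n = 3).

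LAMC1 and LAMB2, chains of the same protein family, overlapped between the groups. LAMC1, the γ1 chain found in most laminins, had 3674 and 3627 normalized counts in Ctr-KD cells and 4147, 4260 and 2923 in NSD2-KD cells, with NSD2-3 below and the other siRNAs above the controls (0.029, interval -0.33 to 0.38). LAMB2, the β2 chain that can take the place of β1, had the narrowest span between siRNAs of all tested members (0.052 on the log2 scale), with 1213 and 1202 against 1198, 1242 and 1212. The ratio of LAMB1 to LAMB2 normalized counts was 1.71 and 1.74 in Ctr-KD cells and 1.93, 2.14 and 2.01 in NSD2-KD cells. In an exact two-sided permutation test this gave p = 0.1, the smallest that 2 against 3 libraries allow, and an adjusted value of 0.25 over 5 ratios picked after the values were seen. The ratio of LAMB1 to LAMC1 was 0.564 and 0.577 against 0.559, 0.623 and 0.833 and did not separate the groups (exact p = 0.7, adjusted 0.8). Of the other ratios, FBLN5 to FBLN2 had an exact p of 0.1 (adjusted 0.25), THBS1 to THBS2 of 0.2 (adjusted 0.333) and FBN1 to FBN2 of 0.8 (adjusted 0.8). FBLN5 and FBLN2 each separated the groups, in opposite directions, so their ratio was bound to separate them and its p adds no support. LAMB1 also separated them while LAMB2 hardly moved, so its ratio to LAMB2 adds little to LAMB1 itself. Of the α chains, LAMA4 had 364 and 367 against 375, 390 and 413 normalized counts, without overlap (0.10, interval -0.14 to 0.34, adjusted p = 0.827 from limma), LAMA5 had 183 ± 6.13 against 208 ± 26.8 (SD, n = 2 and n = 3), and LAMA2 had 38.1 and 34.0 against 29.4, 45.9 and 40.0, both with overlapping groups.

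HSPG2, perlecan, the heparan sulphate proteoglycan of basement membranes, had 2699 ± 55.7 against 2656 ± 173 normalized counts, and AGRN, agrin, 1952 ± 5.15 against 1867 ± 202. The nidogens, which join laminin to collagen IV, had 803 ± 21.4 against 789 ± 47.2 for NID1 (SD, n = 2 and n = 3, as for HSPG2 and AGRN) and 1381 and 1438 against 1393, 1660 and 1578 for NID2. In these 4 genes the groups overlapped. The median of the 10 basement membrane genes was 0.050 on the log2 scale, and 7 were above 0.

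In all, 6 of the 38 tested members (15.8%) had groups that did not overlap, FBLN5, DCN, LAMA4 and LAMB1 above and FBLN2 and EFEMP2 below. Over all genes tested this share was 27.7% (13.8% above and 13.9% below), above the share of the members.

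Levels differed between the siRNAs. Between the highest and lowest siRNA, the median member spanned 0.28 on the log2 scale, while Ctr-1 and Ctr-2 differed by a median of 0.053. The same medians over all genes tested were 0.39 and 0.14, where counting error is larger. For 22 members (57.9%, against 36.8% of all genes tested) the siRNAs lay on both sides of the Ctr-KD libraries, at least 1 above both and 1 below both. A narrow gap between Ctr-1 and Ctr-2 favours this, and the gap was narrower for the members. The share among other abundant genes was not taken.

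NSD2-2 was the highest of the 5 libraries for 23 of 38 members (60.5%), against 24.7% of all genes tested. NSD2-3 was the lowest library for 13 (34.2%, against 21.0%) and NSD2-1 for 11 (28.9%, against 20.5%). Relative to the Ctr-KD mean the members' median was -0.0072 with NSD2-1, 0.13 with NSD2-2 and -0.014 with NSD2-3, and the medians of all genes tested lay between 0.0044 and 0.012. These comparisons share the same 2 Ctr-KD libraries, and no test was made of a single siRNA.

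NSD2-2 was also the highest library more often among abundant genes than among all genes. Among 877 other genes averaging at least 500 normalized counts, NSD2-2 was the highest library for 37.5%, and their median against the Ctr-KD mean was 0.050. By transcript length, the share was 31.3% for such genes with transcripts of at least 5000 bases and 40.0% for shorter ones. Scaled to the total reads on genes, NSD2-2 was highest for 19 members (50%, against 20.4% of all genes tested and 28.3% of the other abundant genes). Its median against the Ctr-KD mean was then 0.095 for the members and -0.018 for all genes, so that both were lower than with the authors' scaling. After quantile normalization it was highest for 14 members (36.8%, against 26.3% and 26.1%), with medians of 0.080 for the members and 0.042 for all genes.

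**Figure D3:**
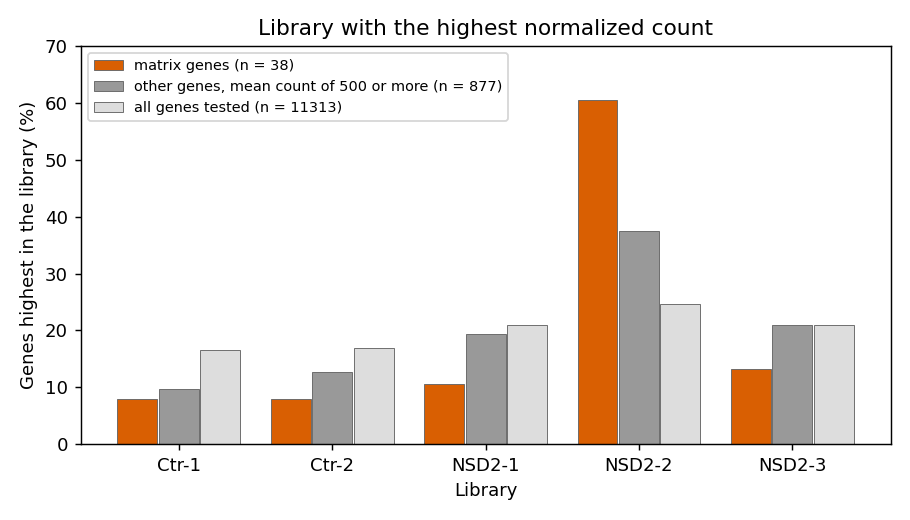
Share of genes (%) whose highest normalized count falls in each library, for the 38 tested matrix genes, for 877 other genes with a mean count of at least 500 and for all genes tested. NSD2-2 holds 60.5% of the matrix genes, 37.5% of the other abundant genes and 24.7% of all genes.

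Reads were numerous enough to follow single genes through the siRNAs. The fold of each siRNA over the pooled Ctr-KD reads, with an exact 95% interval that covers counting error alone, was above 1 for 8 members with NSD2-1, 19 with NSD2-2 and 7 with NSD2-3 (11.4%, 13.4% and 11.3% of all genes tested). It was below 1 for 6, 2 and 10 members (12.9%, 14.2% and 12.1% of all genes). Such intervals narrow with depth, and among the 877 other abundant genes the shares above 1 were 23.8%, 35.8% and 26.5% and those below 1 were 25.7%, 20.3% and 20.8%. The members' shares were 21.1%, 50% and 18.4% above 1 and 15.8%, 5.26% and 26.3% below 1. Against the abundant genes, the members were thus more often above 1 with NSD2-2 and less often with NSD2-1 and NSD2-3, as plain shares without a test. For Ctr-1 over Ctr-2 the counts were 0 above and 2 below (2.08% and 2.47% of all genes). These intervals compare libraries and not conditions, since each siRNA has 1 library.

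The span between siRNAs was over 0.5 on the log2 scale for 9 members, LTBP1, THBS1, MFAP2, MATN2, LAMA2, THBS2, POSTN, LAMC1 and VCAN. Spans of this size were common among all genes tested. The narrowest of these, 0.5006 for VCAN, was wider than that of only 63.3% of all genes tested. For LAMC1 and POSTN this share was 67.5% and 68.6%. MFAP2, MATN2 and LAMA2 were counted on 10 to 61 reads a library. The genes described here for their differences between siRNAs were chosen after their values were seen. LTBP1, which anchors latent TGF-β to fibronectin and fibrillin, had 2082 and 2107 normalized counts in Ctr-KD cells and 2106, 2614 and 1333 with NSD2-1, NSD2-2 and NSD2-3. NSD2-1 was level with the controls, NSD2-2 was 1.25 times their mean (counting interval 1.19 to 1.31) and NSD2-3 was 0.637 times it (0.599 to 0.677). Its span of 0.97 on the log2 scale was wider than that of 90.3% of all genes tested.

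LAMC1 and THBS1 showed the same order. NSD2-3 stood at 0.8004 times the Ctr-KD reads for LAMC1 (counting interval 0.767 to 0.835) while NSD2-1 and NSD2-2 stood at 1.14 and 1.17 times, and NSD2-2 stood at 1.73 times for THBS1 (1.68 to 1.78). MATN2 went the other way, with 51.4 and 57.6 normalized counts in Ctr-KD cells and 52.5, 36.0 and 59.5 with NSD2-1, NSD2-2 and NSD2-3.

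Other members were set apart by NSD2-1 or NSD2-3. THBS2, a matricellular thrombospondin, had 178 and 195 normalized counts in Ctr-KD cells and 225, 184 and 148 in NSD2-KD cells, highest with NSD2-1 and lowest with NSD2-3. POSTN, an integrin ligand of collagen-rich tissue, was highest with NSD2-1, at 640 normalized counts against 501 and 466 in Ctr-KD cells and 523 and 434 with NSD2-2 and NSD2-3. AGRN and VCAN were lowest with NSD2-1, at 0.838 (0.792 to 0.887) and 0.851 (0.785 to 0.922) times the Ctr-KD reads. EFEMP1, with a narrower span, was highest with NSD2-3, at 376 normalized counts against 282 and 298 in Ctr-KD cells and 294 and 292 with NSD2-1 and NSD2-2.

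**Figure D4:**
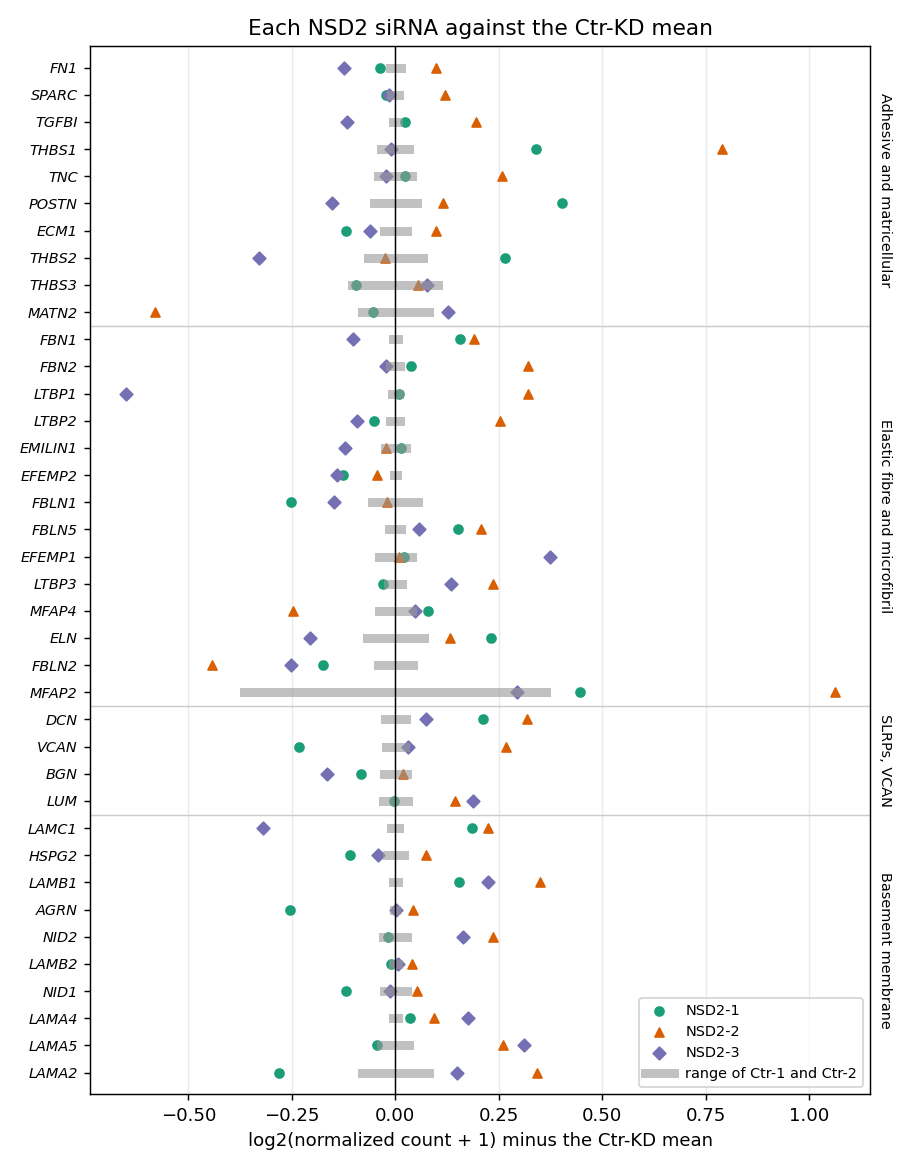
Level of each tested gene with each NSD2 siRNA, as log2(normalized count + 1) minus the mean of the Ctr-KD libraries, by role (SLRPs, small leucine-rich proteoglycans). The grey bar is the range of Ctr-1 and Ctr-2. NSD2-2 is the rightmost siRNA for most genes, and LTBP1 and LAMC1 are lower with NSD2-3 and higher with NSD2-2.

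Other genes of the same pathway were read from the same fit. A list of 70 further matrix glycoproteins and proteoglycans had 34 tested genes, of which 0 passed the adjusted p in limma (the background shares are those given above), 4 were higher and 1 lower at an unadjusted p under 0.05, and the median log2 difference was 0.00017. The number higher was 1 without Ctr-1 or without Ctr-2, and the number lower was 3 without NSD2-3 and 2 without Ctr-1. CYR61, a matricellular protein of the CCN family, had 1329 and 1290 normalized counts in Ctr-KD cells and 658, 565 and 1043 in NSD2-KD cells. Every siRNA lay below the controls, and the log2 difference of -0.84 (standard error 0.22) had an adjusted p of 0.28 from limma. With the replicate number as a block, or without the NSD2-3 library, it was -1.1 and passed (adjusted p = 0.00446 and 0.0141 from limma). CTGF, another CCN member named after its values were seen, had 1604 and 1652 against 1134, 1045 and 1946 normalized counts, with NSD2-3 above the controls, and passed with the block alone (adjusted p = 0.0432 from limma, against 0.76 without it). NOV, also of the CCN family, had 5.72 and 5.14 against 9.20, 19.7 and 17.6 normalized counts (1.29, adjusted p = 0.35 from limma), and SRPX2 had 89.5 and 98.8 against 129, 127 and 121 (0.41, adjusted p = 0.402 from limma).

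Cell surface proteoglycans, the syndecans, glypicans and their relatives, had 10 of 13 genes tested. Of these, 0 passed the adjusted p in limma, 1 was higher and 0 lower at an unadjusted p under 0.05, and the median was 0.019. GPC1, glypican-1, had 1758 and 1896 normalized counts against 1988, 2196 and 2116 (0.20, adjusted p = 0.544 from limma). This count was 0 in most of the 17 alternatives, among them edgeR, DESeq2, the replicate block and the fits without Ctr-1, Ctr-2, NSD2-2 or NSD2-3, and 2 without NSD2-1. CSPG4, a chondroitin sulphate proteoglycan of the cell membrane, had 1061 and 1099 against 971, 972 and 1076 normalized counts, and SDC1, syndecan-1, had 144 and 159 against 145, 157 and 216. Both had overlapping groups.

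The enzymes that make the glycosaminoglycan chains of proteoglycans had 37 of 43 genes tested. None passed the adjusted p in limma, 1 was higher and 2 lower at an unadjusted p under 0.05, and the median was 0.019. These counts rested on single libraries, with 4 higher and 4 lower without NSD2-2, 3 higher without NSD2-1, 2 higher without NSD2-3, and 0 lower without Ctr-1 or without Ctr-2. UGDH, which makes the UDP-glucuronate that all these chains except keratan sulphate need, had 262 and 264 normalized counts in Ctr-KD cells and 380, 405 and 327 in NSD2-KD cells. Every siRNA lay above both controls (0.49, standard error 0.12, adjusted p = 0.267 from limma). FAM20B, the xylose kinase of the linker region, had 225 and 239 against 148, 205 and 146 (-0.49, adjusted p = 0.413 from limma), and CHSY1, a chondroitin synthase, had 214 and 228 against 195, 161 and 156 (-0.38, adjusted p = 0.448 from limma). Both lay below the controls with every siRNA, and neither passed the test.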

How the data were processed

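The deposited table holds, as signal, read counts per gene that the authors divided by 1 DESeq2 size factor per library. Per the study's methods, reads were trimmed, mapped to hg19 (the same assembly as GRCh37) with HISAT2, kept if uniquely mapped (SAMtools) and counted with featureCounts. The annotation and strand setting are not given in the sources used here, so the counts of 20 members, whose exons overlap another gene, 18 of them on the other strand alone, are less certain (without strand, reads of overlapping genes cannot be told apart). A second table with the authors' DESeq2 comparison (fold changes, standard errors and p-values) was not used. Size factors hide a change shared by all genes.

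Every value was a whole multiple of what 1 read is worth (100% within 0.01), so reads were recovered. The main test was limma (3.58.1, R 4.3.3), two-sided and without covariates, with its prior variance following expression. It was fitted to log2(normalized count + 1) of the 11313 genes whose mean reached 10, and p-values were adjusted over all of them (Benjamini-Hochberg). The added count makes the fold changes of low genes too small. edgeR (4.0.16) and DESeq2 (1.42.0) on the recovered reads were alternatives. p-values set the difference between the groups against 1 spread pooled over both. That spread was not equal, with a chi-square over degrees of freedom of 1.05 between the Ctr-KD libraries and 5.05 to 5.29 between the NSD2-KD libraries. The fits were tested on simulated counts with larger changes than those of the members and equal spread in both groups. Smaller changes and the unequal spread of these libraries were not simulated, so the simulation does not bear on them. Coordinates, transcript lengths (canonical transcript) and overlaps come from GENCODE on GRCh37, which may not be the annotation used for counting.

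The members and lists were chosen with earlier results of these data known. Named with values in every library are members at an unadjusted p under 0.05, members whose groups do not overlap and the 8 with the highest mean count, and from each further list the 3 genes with the smallest p. Other members so given were chosen after their values were seen. Same-numbered libraries did not deviate together (correlations of -0.015 and -0.027), and the numbers are those of the siRNAs, so they do not pair the samples.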

Additional observations from a re-analysis of the deposited data

How the results depend on the processing

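Under all 17 alternatives (pseudocounts of 0.5 and 5, no filter, a minimum mean count of 50, no trend, robust estimation, quantile normalization, edgeR, DESeq2, limma-voom, the replicate block, the Ctr-KD libraries averaged into 1 sample, and each library left out), 0 members passed an adjusted p of 0.05. The smallest adjusted p was 0.0501 (THBS1, with the replicate block), and for LAMB1 it ran from 0.26 to 1.0. The members' median log2 difference ran from -0.0059 (without NSD2-2) to 0.067 (without NSD2-3) when libraries were left out and moved by less than the SD of the siRNA medians (0.078) in every alternative. The number of members higher at an unadjusted p under 0.05, 1 in the main analysis, was 5 without NSD2-3 (DCN, FBN1, LAMB1, LAMC1 and THBS1). It was 3 with the replicate block, 2 without NSD2-1 or with robust estimation, and 0 without the trend and in DESeq2. Apart from edgeR and DESeq2, the share of all genes at this threshold was not taken in the alternatives, here or for the further lists. At an adjusted p under 0.05, 30 genes were called in all without NSD2-3, against 10 in the main analysis.

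With the replicate block, in which NSD2-3 has no partner and drops out, 102 genes were called in all against 10 without it, and 2 further matrix genes were called lower (CYR61 and CTGF). Leaving out single libraries gave between 0 and 1 lower. Directions turned for FN1 (0.031 with the block, and -0.079 to 0.031 when libraries were left out), SPARC (-0.019 without NSD2-2, to 0.052), TGFBI (-0.014 with quantile normalization, and -0.047 without NSD2-2 to 0.11 without NSD2-3), LAMC1 (-0.040 with quantile normalization, and -0.068 without NSD2-2 to 0.20 without NSD2-3, with -0.049 without NSD2-1) and SDC1 (-0.0022 with the block, and -0.0022 without NSD2-3 to 0.28 without NSD2-1). The number of members highest in NSD2-2, 23 with the authors' scaling (60.5%, against 24.7% of all genes), was 19 with total reads (50% against 20.4%) and 14 after quantile normalization (36.8% against 26.3%), both chosen after seeing the data. The cause was not tested. Genes with few reads, MFAP2 and MFAP5 first, are limited by depth.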
